A study of Rattus norvegicus with 9 samples.

Results

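Spinal cord after injury was compared with spinal cord after a sham operation in rats that had received no drug. The comparison took 6 of the 9 libraries of the study, the 3 of the Sham group and the 3 of the C_Spinal group, and in them every gene with a mean FPKM of at least 1, which left 14776 of the 32623 genes in the deposited table. All were female rats of the Wistar stock, 8 weeks old, with a body weight of 200 to 230 g. In Sham rats the lamina of the vertebra was opened and the cord was left uninjured and untreated. In C_Spinal rats the cord was injured, and distilled water was then given by gavage. The remaining 3 libraries, T_Spinal, came from injured rats given 3 mL of the decoction MED daily and enter only 1 alternative fit. Per the labels, the libraries were made from poly(A) RNA of spinal cord with an integrity number above 7.0. The time between injury and dissection, the way and level of the injury, the length of cord taken and whether the 3 libraries of a group come from separate animals are details that the sources used here do not give. The p-values therefore measure the spread between libraries, which may be technical.

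Grey matter of the cord holds the motor neurons, the excitatory and inhibitory interneurons and their synapses, and white matter holds the long axons with the myelin that oligodendrocytes wrap around them. An injury kills neurons and oligodendrocytes at the lesion, cuts axons, and brings in monocytes and other leukocytes from blood. Over days to weeks, microglia and macrophages take up myelin debris, astrocytes become reactive, and fibroblasts lay down a collagen-rich scar. In RNA from whole tissue, fewer cells of a type and less RNA per cell cannot be told apart.

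The 6 libraries held 56995589 to 69751015 counts. Across genes, Spearman correlations were 0.983 to 0.987 between libraries of a group and 0.756 to 0.763 between groups, and no pair of libraries looked like a single library deposited in duplicate. The edgeR quasi-likelihood test called 5566 genes higher in C_Spinal and 5513 lower, or 37.7% and 37.3% of those tested, at a Benjamini-Hochberg adjusted p below 0.05. "Rose" and "fell" are used below for these calls alone, and a background of 75.0% called means that a share of called genes near that value says little about a list. Groups did not overlap for 78.6% of genes (39.6% above Sham, 39.0% below). A gene can reach the minimum mean FPKM through the level of a single group, so the shares of list members given below are a description only. Changes of at least 4-fold were found in 1191 higher and 1010 lower genes, and changes of at least 16-fold in 239 and 101. Values are FPKM, which is per transcript length, and fold changes are log2 of C_Spinal over Sham with the standard error (SE). A gene with no count is listed in the table at a small constant, and such a value is written here as 0.

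**Figure D1:**
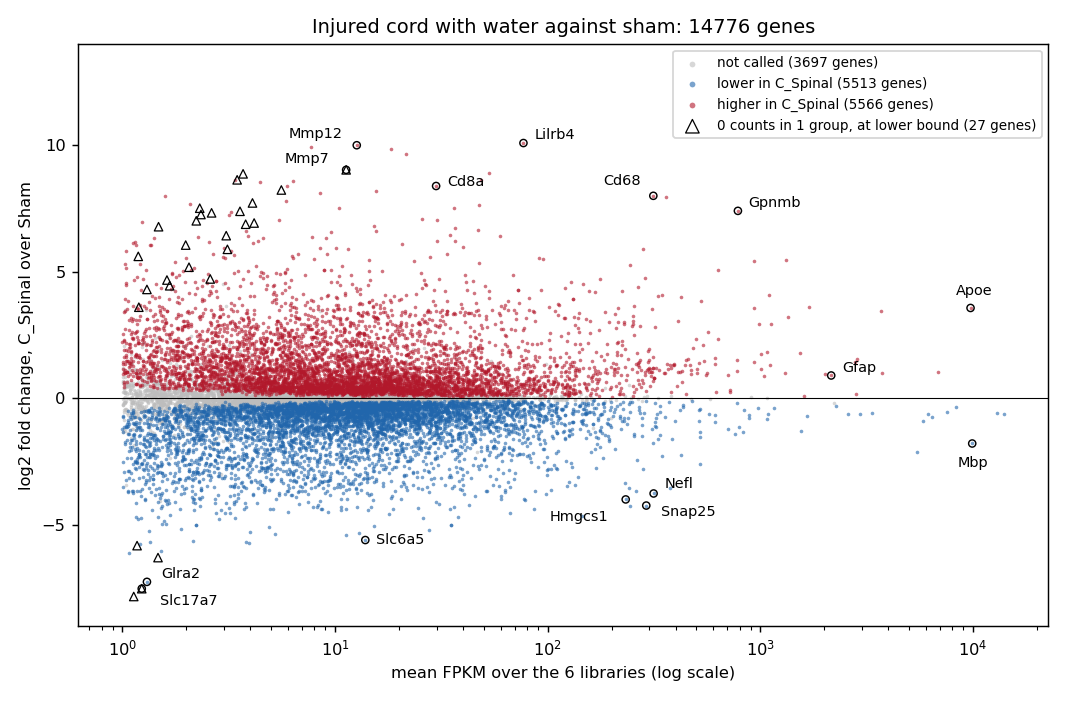
Log2 fold change of C_Spinal over Sham (vertical axis) against mean FPKM over the 6 libraries (horizontal, log scale) for 14776 genes. Red and blue points were called higher and lower, grey points were not called, and triangles are the 27 genes with no count in a whole group, placed at their lower bound. Changes of at least 32-fold were called in 122 higher and 24 lower genes, so the upper part of the plot is the fuller one.

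Reference genes were examined first, because they bear on how the libraries are scaled. Of 19 genes in common use as references, 11 rose, 6 fell and 2 were not called, with a median log2 fold change of 0.17 that turned to -0.24 when the libraries were scaled by these genes themselves. Gusb, the lysosomal glucuronidase, was at 4.10, 4.31 and 4.22 FPKM in the Sham libraries and 35.1, 34.3 and 33.1 in the C_Spinal libraries (log2 fold change 2.91, SE 0.045, adjusted p = 9.68e-10). Beta-actin, Actb, was at 801, 851 and 847 FPKM in Sham and 1803, 1751 and 1818 in C_Spinal (0.99, SE 0.028). At the other end, the transferrin receptor Tfrc fell from 32.6, 32.3 and 32.7 to 15.0, 16.4 and 14.02 FPKM (-1.22, SE 0.056). In each of these 3 genes the groups did not overlap. The ubiquitin gene Ubb was not called, at a log2 fold change of 0.016 (95% confidence interval -0.18 to 0.21). Peptidylprolyl isomerase Ppia was at -0.19 and the RNA polymerase subunit Polr2a at 0.37, the latter at -0.047 and not called under scaling by the reference genes. The call of Tbp was near the threshold (0.32, adjusted p = 0.0368). It was lost without Sham replicate 1 or 3 or C_Spinal replicate 2 or 3 (adjusted p 0.0772 to 0.115). It was also lost in the fit without an expression minimum (adjusted p = 0.0590). Scaling by the reference genes gave 3436 genes higher and 8300 lower and moved the median of all genes by -0.42, and total-count scaling and limma on log2(FPKM + 0.1) moved it by 0.11 each. Fold changes below are relative to the TMM scaling (trimmed mean of M values), under which the median of all genes was 0.01. FPKM as deposited does not carry that scaling, so a change read from FPKM values lies about 0.11 above the fitted log2 fold change.

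**Figure D2:**
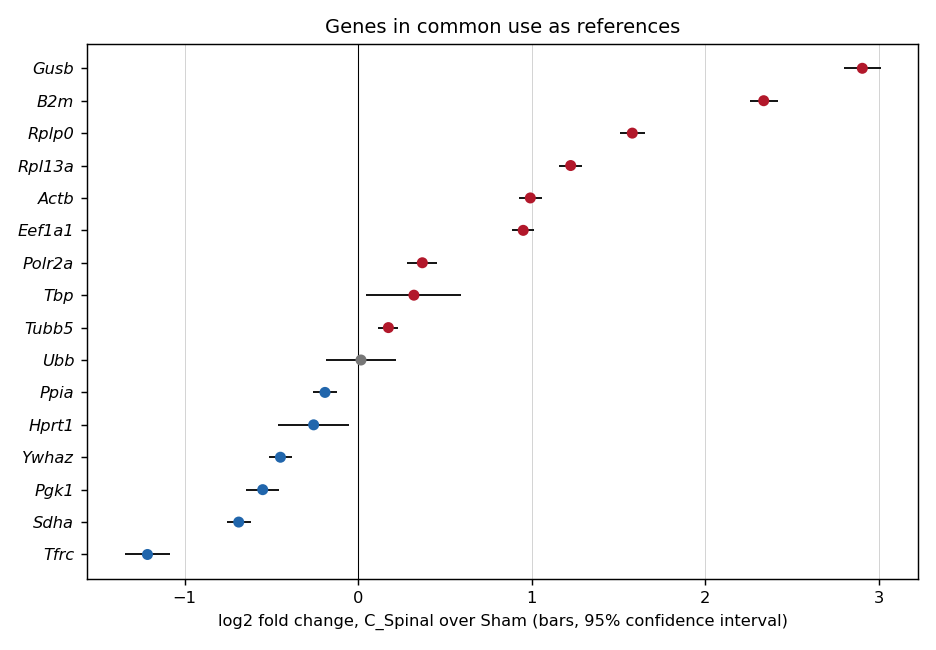
Log2 fold change of C_Spinal over Sham, with 95% confidence intervals, of 16 of the 19 tested genes in common use as references. Red genes were called higher, blue lower and grey not called; they spread from Tfrc at -1.22 to Gusb at 2.91, and when the libraries were scaled by all 19 genes Tubb5 was called lower while Polr2a and Tbp were just below 0 and not called.

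The largest rises belonged to genes that were close to silent in Sham. Lilrb4, an inhibitory receptor of myeloid cells, was at 0.305, 0.0194 and 0.0364 FPKM in the Sham libraries and 145, 164 and 151 in the C_Spinal libraries, 10.09 higher on the log2 scale (SE 0.38, adjusted p = 8.32e-08). Mmp8, a collagenase, was at 0.0424, 0.0314 and 0.0261 FPKM in Sham and 35.5, 36.9 and 37.1 in C_Spinal (9.84, SE 0.10). Siglec1, the sialic acid receptor of macrophages, was at 0.138, 0.103 and 0.0420 FPKM in Sham and 31.6, 30.7 and 31.4 in C_Spinal (8.19, SE 0.23). The largest rises were taken from genes whose groups did not overlap, so the separation of these 3 follows from that choice. Cd8a and Cd8b, the chains of the CD8 coreceptor, were both close to 0 in Sham. Cd8a had 0, 25 and 21 counts in the Sham libraries and 4803, 5396 and 5809 in the C_Spinal libraries, and Cd8b had 0, 0 and 4 and then 1376, 1401 and 1591. Sost, an antagonist of Wnt signalling best known from bone, had 0, 0 and 4 counts in Sham and 450, 501 and 581 in C_Spinal. The related receptors Lilrb2 and Cd300c2 were also among the 10 largest rises, Lilrb2 at 13.1, 12.8 and 12.2 FPKM after injury and Cd300c2 at 7.69, 10.4 and 8.54; Lilrb4 and Lilrb2 have close relatives in the genome, so the share of each in these counts is uncertain. No count at all was found in Sham for 23 tested genes and in C_Spinal for 4.

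Among the largest falls were subunits of neuronal receptors. Glra2, a subunit of the glycine receptor, was at 2.99, 2.60 and 2.19 FPKM in Sham and 0, 0.0184 and 0.0315 in C_Spinal (-7.25, SE 0.56, adjusted p = 6.44e-06). Chrna4, a nicotinic acetylcholine receptor subunit, went from 9.64, 10.3 and 10.4 to 0.429, 0.176 and 0.200 FPKM (-5.35, SE 0.30). Scrt1, a transcriptional repressor of neurons, went from 20.4, 21.9 and 23.5 to 0.741, 0.553 and 0.375 FPKM (-5.41, SE 0.21). Gpr26, an orphan receptor of neurons, was at 2.33, 1.79 and 2.22 FPKM in Sham and 0.0906, 0 and 0 in C_Spinal, with no count in 2 of the 3 injured libraries. Slc17a7, which loads glutamate into vesicles, had 536, 544 and 526 counts in Sham and none in C_Spinal, a level at least 184-fold lower against a floor of 3 counts per library.

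Neurons of each transmitter class lost signal. Of the tested genes of excitatory spinal neurons, 13 of 17 fell and 1 rose (median -2.39); of those of inhibitory neurons all 14 fell (median -2.69); and of motor neuron and cholinergic genes 10 of 13 fell and 1 rose (median -2.04), where 37.3% of all genes fell at a median near 0. Slc17a6, the vesicular glutamate transporter of spinal excitatory neurons, was at 27.5, 27.2 and 28.9 FPKM in Sham and 1.89, 1.48 and 1.23 in C_Spinal (-4.30, SE 0.14). Gad1, which makes GABA, was at 20.01, 20.8 and 21.2 FPKM in Sham and 2.37, 2.66 and 2.21 in C_Spinal (-3.21, SE 0.074). Chat, which makes acetylcholine, was at 10.2, 10.1 and 10.7 FPKM in Sham and 1.55, 0.858 and 0.877 in C_Spinal (-3.35, SE 0.23). Slc6a5, the glycine transporter of inhibitory neurons, went from 25.9, 27.3 and 28.2 FPKM in Sham to 0.479, 0.675 and 0.655 in C_Spinal (-5.60, SE 0.12). The largest and smallest falls among these representatives, 48.5-fold for Slc6a5 and 9.25-fold for Gad1, were thus both of the inhibitory class, with Slc17a6 at 19.6-fold. The exceptions that rose within the lists were Maf, a transcription factor also used by macrophages, by 2.04, and Spp1, made by some motor neurons and in quantity by phagocytes, by 3.07. Choline acetyltransferase was accompanied by Ache, the acetylcholinesterase (-3.72), and by Esrrg, a nuclear receptor of gamma motor neurons (-3.50).

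The release machinery at nerve endings fell without exception. All 24 tested presynaptic genes were lower in C_Spinal, with a median of -3.29. Syt2, the calcium sensor of fast synapses, fell most, from 51.1, 55.1 and 54.9 to 1.89, 1.41 and 1.45 FPKM (-5.20, SE 0.11), while its relative Syt1 went from 29.5, 29.6 and 28.0 to 4.49, 4.84 and 4.37 FPKM (-2.78, SE 0.053). Rims1, an active zone scaffold, and Cplx1, which clamps vesicle fusion, were at -4.73 and -4.65. The smallest fall of the list was that of Vamp2, the vesicle SNARE, from 132, 133 and 136 to 73.7, 72.3 and 76.2 FPKM (-0.97, SE 0.032).

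On the receiving side, 42 of 43 transmitter receptors and postsynaptic scaffold genes fell (median -3.20), and 1 was not called. Glra1, the adult glycine receptor subunit, was at 24.98, 24.7 and 26.2 FPKM in Sham and 0.545, 0.700 and 0.812 in C_Spinal. Gria2, the AMPA receptor subunit that sets calcium permeability, was at 21.8, 20.8 and 19.8 FPKM in Sham and 4.33, 3.38 and 4.19 in C_Spinal (-2.50, SE 0.10). Grin1, the obligatory NMDA receptor subunit, was at 35.8, 39.5 and 38.9 FPKM in Sham and 2.84, 2.38 and 2.64 in C_Spinal (-3.97, SE 0.073). Glra1 fell further than either glutamate receptor subunit, at -5.30 (SE 0.13). All 29 tested ion channels and pumps of neurons fell as well (median -2.72), among them Kcnc1 (-5.05), a potassium channel of fast-spiking neurons, and Scn1a, a sodium channel (-4.48). Kcna1, the potassium channel beside the node of Ranvier, was at 43.4, 51.1 and 47.9 FPKM in Sham and 7.05, 6.62 and 7.31 in C_Spinal (-2.87, SE 0.073). Slc12a5, the chloride exporter that makes GABA and glycine inhibitory, was at 52.2, 60.1 and 55.8 FPKM in Sham and 3.51, 3.46 and 3.58 in C_Spinal (-4.11, SE 0.058).

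Axonal cytoskeleton genes fell in 22 of 22 cases (median -2.57). The neurofilament light chain Nefl went from 594, 580.1 and 574 to 47.5, 45.1 and 46.9 FPKM (-3.76, SE 0.034) and the heavy chain Nefh from 414, 421 and 421 to 44.2, 44.3 and 43.8 FPKM (-3.36, SE 0.023). Ina, a further neurofilament subunit, was at -4.18, and Kif5a, the kinesin of neurons, at -3.66. Of 24 transcription factors and RNA-binding proteins of neurons, 20 fell and 3 rose (median -1.69). Rbfox3, the splicing factor known as NeuN, was at 25.7, 26.6 and 29.7 FPKM in Sham and 1.56, 1.21 and 1.41 in C_Spinal (-4.40, SE 0.12). Those that rose were Rest, the repressor of neuronal genes outside neurons (0.70, SE 0.071), Zic1, which fibroblasts of the meninges also express (2.29), and Celf2 (0.27, or -0.14 and not called under scaling by the reference genes), whose call was lost without C_Spinal replicate 1 (adjusted p = 0.0533).

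**Figure D3:**
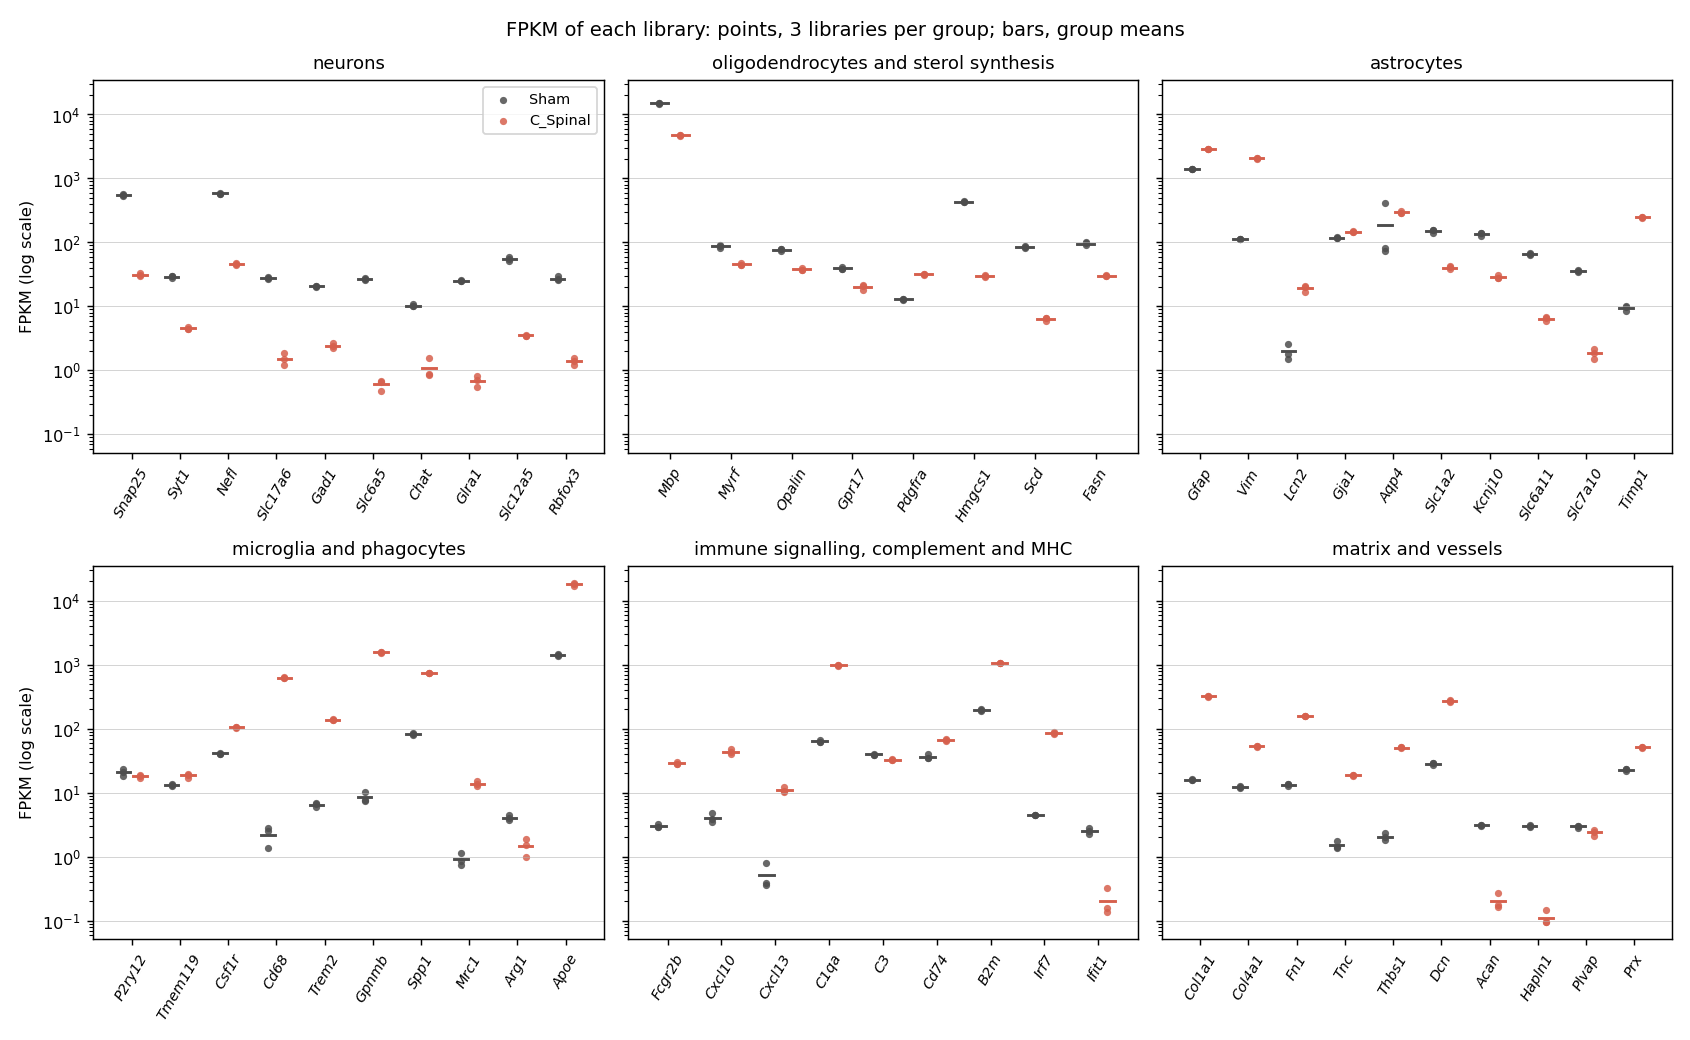
FPKM (log scale) of member genes in each library, by cell type or function. Grey points are the 3 Sham libraries, orange points the 3 C_Spinal libraries and bars the group means. Points of a group lie on top of each other for most genes; Aqp4 in Sham, with a single high library, stands out as spread.

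Myelin transcripts had a smaller median fall than the neuronal lists. Of 36 genes of central myelin and mature oligodendrocytes, 35 fell and 1, the lipid carrier Apod, rose, turning to lower under scaling by the reference genes (median -1.20). Fa2h and Ugt8, which make the galactolipids of myelin, fell most, at -2.55 and -2.45. Myrf, the transcription factor that keeps oligodendrocytes mature, was at 82.3, 89.0 and 91.0 FPKM in Sham and 44.8, 44.9 and 48.1 in C_Spinal (-1.04, SE 0.045) and Opalin at -1.13. Apod was at 2556, 2537 and 2530.4 FPKM in Sham and 3070.3, 3047 and 3065 in C_Spinal, a log2 fold change of 0.16 that turned negative under scaling by the reference genes.

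Precursors did not follow a single direction. Of 21 genes of oligodendrocyte precursors and newly formed oligodendrocytes, 4 rose, 13 fell and 4 were not called (median -0.46). Pdgfra, the receptor that marks precursors and also fibroblasts, was at 12.7, 13.1 and 13.1 FPKM in Sham and 31.9, 32.7 and 30.9 in C_Spinal (1.18, SE 0.033). Gpr17, a receptor of committed precursors, was at 38.05, 39.0 and 41.7 FPKM in Sham and 17.8, 20.8 and 21.9 in C_Spinal (-1.08, SE 0.085). C1ql1, a secreted precursor protein, rose by 1.27, and Enpp6, a marker of newly forming oligodendrocytes, fell (-1.76). Pdgfra and Gpr17 therefore moved in opposite directions. As fibroblasts also carry Pdgfra, which cells its rise came from was not tested. At the node of Ranvier, 17 of 18 genes fell, among them Cntnap1 (-2.59) and Cntn2 (-2.17), which join axon and glia, and 1 rose, Gldn, which Schwann cells secrete at peripheral nodes (1.76).

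The synthesis of lipids used in myelin fell along with it. All 25 tested cholesterol synthesis genes were lower (median -2.79). Hmgcs1, an early enzyme of the pathway, was at 449, 433 and 425 FPKM in Sham and 30.7, 29.4 and 28.6 in C_Spinal (-3.99, SE 0.042). Of 29 genes of fatty acid and myelin lipid synthesis, 26 fell and 2 rose (median -1.28). The desaturase Scd fell from 84.9, 83.2 and 86.8 to 5.98, 6.55 and 6.54 FPKM (-3.85, SE 0.047), and Fasn, fatty acid synthase, from 91.8, 96.7 and 99.99 to 31.1, 29.8 and 30.1 FPKM (-1.78, SE 0.036). The exceptions were Srebf1, the transcription factor known for switching on fatty acid synthesis, at 17.01, 17.4 and 18.5 FPKM in Sham and 73.0, 69.98 and 75.4 in C_Spinal (1.94, SE 0.043), and Acacb (0.14, turning to lower under scaling by the reference genes). The call of Acacb was lost without Sham replicate 1, 2 or 3 or C_Spinal replicate 1, 2 or 3 (adjusted p 0.0573 to 0.139). Srebf1 thus rose while Scd and Fasn fell.

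Genes of cholesterol efflux and storage moved the other way: 16 of 20 rose and 4 fell (median 2.01). Apoe, the main lipid carrier of the nervous system, was at 1351, 1404 and 1465 FPKM in Sham and 18965, 17047 and 18151 in C_Spinal (3.57, SE 0.045, adjusted p = 3.95e-10). It had the highest FPKM of all genes in C_Spinal, above Mt-co1 at 11456, 11639 and 11702, whereas Mt-co1 led in Sham at 18052, 15955 and 15390.2 and Mbp came next at 14769, 15115 and 15370.4. Abca1, which loads cholesterol onto lipoproteins, was at 5.94, 5.89 and 5.91 FPKM in Sham and 95.9, 104 and 99.0 in C_Spinal (3.96, SE 0.038). The genes that fell were Cyp46a1, which clears cholesterol from neurons (-1.58), Abca7 (-1.29), Nceh1 (-0.87) and the lysosomal exporter Npc1 (-0.73).

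In astrocytes, genes of reactivity and genes of daily support parted. All 33 tested reactive astrocyte genes rose (median 2.95), while of 29 support genes 7 rose, 18 fell and 4 were not called (median -0.46). Vim, an intermediate filament of reactive astrocytes and of many other cells, was at 115, 115 and 113 FPKM in Sham and 2100.2, 2045 and 2086 in C_Spinal (4.07, SE 0.025). Gfap, the main filament of astrocytes, was at 1421, 1431 and 1423 FPKM in Sham and 2887, 2885 and 2868 in C_Spinal (0.90, SE 0.014). Gfap rose by 1.87-fold against 16.8-fold for Vim. Lcn2, a secreted iron-siderophore carrier, was at 1.52, 1.83 and 2.60 FPKM in Sham and 20.4, 16.7 and 20.6 in C_Spinal (3.17, SE 0.21). The largest rises of the list, Plaur (6.57) and Plau (6.32), are the urokinase receptor and urokinase, which macrophages also make.

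Transporters of astrocytes fell by different amounts. Slc1a2, the main glutamate transporter, was at 138, 157 and 155 FPKM in Sham and 37.8, 42.6 and 40.8 in C_Spinal (-2.01, SE 0.063). Slc7a10, which carries serine and glycine, was at 34.5, 37.1 and 35.3 FPKM in Sham and 1.504, 2.18 and 1.87 in C_Spinal (-4.37, SE 0.13), and Slc6a11, a GABA transporter, at 63.5, 66.2 and 67.9 FPKM in Sham and 5.91, 6.85 and 6.58 in C_Spinal (-3.46, SE 0.062). Kcnj10, the potassium channel of astrocytes, fell as well (-2.34, SE 0.057). Of the channel proteins, Gja1, connexin 43, was at 116, 121 and 119 FPKM in Sham and 145, 148 and 145 in C_Spinal (0.18, adjusted p = 3.78e-04), turning to lower under scaling by the reference genes. The water channel Aqp4 was at 72.4, 82.9 and 414 FPKM in the 3 Sham libraries and 285, 307 and 292 in the C_Spinal libraries, and it was not called (0.53, SE 0.61, adjusted p = 0.454). A single Sham library lay above all others, and Aqp4 was called higher without Sham replicate 3 (adjusted p = 4.63e-07), at 1.81. Aqp1, another water channel, rose from 0.568, 0.713 and 0.792 to 4.93, 4.05 and 4.78 FPKM (2.62, SE 0.16), and Entpd2, which breaks down extracellular ATP, rose by 2.31.

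Among phagocyte genes, all 34 tested genes of lipid-laden phagocytes rose (median 3.35), where 37.7% of all genes did. The member Atp6v0d2 had no count in Sham and passed the expression minimum only through its level after injury. The count is therefore a description only. Trem2, the lipid-sensing receptor of microglia, was at 6.71, 6.79 and 6.06 FPKM in Sham and 139.7, 138 and 137 in C_Spinal (4.29, SE 0.055). Gpnmb, a lysosome-associated glycoprotein, was at 10.3, 7.595 and 7.53 FPKM in Sham and 1531, 1581 and 1565 in C_Spinal. Spp1, osteopontin, was at 84.1, 81.1 and 79.7 FPKM in Sham and 731, 752 and 736 in C_Spinal. Csf1r, the growth factor receptor that all of these cells carry, was at 40.6, 42.1 and 40.8 FPKM in Sham and 105, 105 and 104 in C_Spinal, a smaller change of 1.24 (SE 0.028).

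Genes that mark resting microglia gave a mixed picture: 15 of 20 rose, 4 fell and 1 was not called (median 0.68). P2ry12, the ADP receptor of resting microglia, was at 21.3, 23.6 and 18.0 FPKM in Sham and 18.0, 16.8 and 19.0 in C_Spinal (-0.34, SE 0.11, adjusted p = 0.0216). Tmem119 was at 12.9, 13.4 and 13.8 FPKM in Sham and 17.2, 19.0 and 19.7 in C_Spinal (0.37, SE 0.065, adjusted p = 0.00105), or -0.049 and not called under scaling by the reference genes. The call of P2ry12 was lost without Sham replicate 1 or 2 or C_Spinal replicate 1 or 2 (adjusted p 0.050003 to 0.0696). Beside P2ry12 the members that fell were Bin1, which oligodendrocytes also express (-0.99), Selplg (-0.67) and the microglial transcription factor Sall1 (-0.24). Against the 2.36-fold rise of Csf1r, P2ry12 differed by 1.26-fold and Tmem119 by 1.29-fold.

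Of 32 genes of recruited monocytes and macrophage states, 22 passed the expression minimum, of which 20 rose and 1 fell (median 3.40). Some, such as Mrc1, passed only through their level after injury. Without a minimum, 8 of the others were called higher. Mrc1, the mannose receptor, was at 0.869, 1.14 and 0.734 FPKM in Sham and 12.8, 15.0 and 13.5 in C_Spinal (3.80, SE 0.16). Ifitm1 (7.94) and the folate receptor Folr2 (6.66) rose most. Arg1, the arginase used as a marker of a repair-like macrophage state, fell, from 4.46, 3.70 and 3.96 to 1.91, 1.499 and 0.995 FPKM (-1.57, SE 0.25). Nos2, the inducible nitric oxide synthase, stayed below the expression minimum, at 0.0112, 0 and 0 FPKM in Sham and 0.129, 0.0492 and 0.198 in C_Spinal. Transcription factors of the myeloid lineage rose in 21 of 25 cases and fell in none (median 1.82), with Spi1, known as PU.1, at 3.27, 3.79 and 2.82 FPKM in Sham and 40.2, 36.9 and 37.0 in C_Spinal (3.41, SE 0.11) and Batf at 4.93.

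Few genes of other leukocytes passed the expression minimum. Neutrophil genes rose in 5 of 6 tested cases, and S100a9, an abundant neutrophil protein, was at 0, 0.120 and 0 FPKM in Sham and 12.7, 10.6 and 12.0 in C_Spinal. Of 27 T and NK cell genes, 5 passed the minimum and all rose, and 14 of the others were called higher in the fit without a minimum. The T cell receptor subunit Cd3e was below the minimum at 0.0343, 0 and 0 FPKM in Sham and 0.362, 0.292 and 0.206 in C_Spinal. Cd8a, by contrast, stood at 56.3, 62.5 and 59.8 FPKM in C_Spinal; Cd8a is also known from macrophages of the rat. In B and plasma cells only Cd22 rose among 4 tested genes (4.32), Ebf1 (-1.50) and Derl3 (-1.48), which other cells also express, fell, Cd79b was at 0, 0.212 and 0.0650 FPKM after injury, and the immunoglobulin joining chain Jchain, at 0.902, 0.296 and 1.46 FPKM in Sham and 1.21, 2.26 and 1.72 in C_Spinal, was not called. Many members of these lists that passed the minimum did so only through their level after injury, so the counts are a description only.

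Of 34 chemokines 21 passed the expression minimum, and 20 of these rose (median 4.09). Some, such as Ccl2 and Cxcl13, passed only through their level after injury, so the count is a description only. Ccl2, which draws in monocytes, was at 0.623, 0.615 and 0 FPKM in Sham and 13.5, 10.97 and 11.5 in C_Spinal (4.69, SE 0.79, adjusted p = 7.94e-04). Cxcl10, an interferon-induced chemokine, was at 4.75, 3.86 and 3.52 FPKM in Sham and 40.3, 48.0 and 42.5 in C_Spinal (3.31, SE 0.13). Cxcl13, which attracts B cells, was at 0.361, 0.810 and 0.388 FPKM in Sham and 10.6, 12.2 and 10.3 in C_Spinal (4.27, SE 0.31). In all 3 the lowest injured library stood above the highest Sham library. The exception was Ccl27, which fell (-2.004). Of 21 chemokine receptors 8 passed the minimum, and 7 of these rose and 1 fell. Ccr1 (3.51) and Cxcr4 (3.14) led the rises, beside Cxcr1, which had no count in Sham and passed only through its injured level.

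The classical inflammatory cytokines were scarce. Il1b was at 0.425, 0.186 and 0.364 FPKM in Sham and 1.35, 1.28 and 0.789 in C_Spinal, Tnf at 0.122, 0.0770 and 0.0513 FPKM in Sham and 0.178, 0.158 and 0.126 in C_Spinal, and Il6 at 0, 0.0497 and 0 FPKM in Sham and 0.449, 0.0579 and 0 in C_Spinal, all below the expression minimum. Of 40 cytokines 19 passed it, and 17 of these rose and 2 fell (median 1.33). A gene can pass through its level after injury alone, so the count is a description only. Il1rn, the antagonist of the IL-1 receptor, rose by 3.06, Tnfsf13b, the B cell survival factor, by 3.10, and Tgfb1, which promotes scarring, from 6.92, 6.02 and 8.39 to 58.5, 51.1 and 54.5 FPKM (2.83, SE 0.12). The antagonist Il1rn, at 2.72, 2.70 and 2.86 FPKM after injury, stood above its counterpart Il1b. Il12a (-1.07) and Mif (-0.52) fell.

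Complement genes rose in 22 of 26 cases (median 3.01), but not at every step. C1qa, a chain of the recognition molecule C1q, was at 61.0, 62.1 and 66.0 FPKM in Sham and 1006, 965 and 988 in C_Spinal (3.86, SE 0.038). C3, the central component, fell, from 39.3, 40.3 and 39.2 to 31.9, 33.2 and 32.1 FPKM (-0.40, SE 0.031, adjusted p = 6.43e-06), as did the membrane regulator Cd59 (-0.27). Among the receptors that read antibodies and complement, all 19 tested Fc receptor and ITAM signalling genes rose (median 3.04), with the inhibitory receptor Fcgr2b at 3.29, 2.91 and 2.93 FPKM in Sham and 27.9, 28.3 and 30.4 in C_Spinal (3.13, SE 0.069).

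Antigen presentation rose in both classes, in 23 of 23 MHC class I pathway genes (median 2.26) and 9 of 9 class II pathway genes (median 2.27). B2m, the light chain of class I, was at 201, 195 and 187 FPKM in Sham and 1064, 1074 and 1051 in C_Spinal (2.34, SE 0.035). Cd74, the class II invariant chain, was at 34.4, 35.0 and 39.6 FPKM in Sham and 69.1, 63.9 and 66.5 in C_Spinal (0.76, SE 0.060). RT1-DMb, which helps to load class II, was at 3.33, 5.68 and 6.09 FPKM in Sham and 44.5, 3.08 and 39.2 in C_Spinal, where a single library lay at the Sham level. Its call (2.42, adjusted p = 0.0251) was lost without Sham replicate 1, 2 or 3 or C_Spinal replicate 1 or 3 (adjusted p 0.0546 to 0.0818). The rat MHC genes carry the prefix RT1 and lie on chromosome 20. Of 22 tested RT1 genes 20 rose (median log2 fold change 2.40), and chromosome 20 had the highest share of genes called higher, 49.2%, or 46.9% of the 405 genes left without them. These genes have near-identical copies, so the value of a single RT1 gene is uncertain.

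Interferon response genes rose in 38 of 39 cases (median 2.70). Irf7, the transcription factor that amplifies the response, was at 4.403, 4.53 and 4.42 FPKM in Sham and 87.9, 83.4 and 84.4 in C_Spinal (4.14, SE 0.041). The exception, Ifit1, fell from 2.77, 2.25 and 2.52 to 0.326, 0.138 and 0.156 FPKM (-3.70, SE 0.35), although its relative Ifit3 rose by 2.56. As these genes moved together, their promoters were searched for the core of the interferon-stimulated response element, which is GAAA, any 2 bases and GAAA again, on both strands; overlapping matches were counted. RefSeq promoters of assembly GRCr8, from 250 bases before to 50 bases after the start, were matched by symbol for 30 of the 42 listed genes. The motif was found in 20 of them (66.7%), against 3.92% of all 33469 promoters of the same length. Of the 27 tested genes with a promoter, 17 held it, all 17 rose (median 2.91), and so did all 10 without it (median 2.42). The sequences below show the 150 bases before the start, 5′ to 3′ on the gene's strand, of Irf7 and of 2 effector genes, Oas1a, which senses double-stranded RNA, and Rsad2, known as viperin. Capitals mark the motif or its reverse complement.
Irf7, chr1:205800024-205800173, minus strand: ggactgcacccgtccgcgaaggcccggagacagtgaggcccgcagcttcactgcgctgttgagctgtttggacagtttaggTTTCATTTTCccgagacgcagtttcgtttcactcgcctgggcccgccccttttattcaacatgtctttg
Oas1a, chr12:41330316-41330465, plus strand: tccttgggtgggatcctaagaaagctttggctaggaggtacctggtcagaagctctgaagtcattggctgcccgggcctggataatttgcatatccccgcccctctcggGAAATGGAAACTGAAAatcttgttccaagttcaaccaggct
Rsad2, chr6:48788121-48788270, minus strand: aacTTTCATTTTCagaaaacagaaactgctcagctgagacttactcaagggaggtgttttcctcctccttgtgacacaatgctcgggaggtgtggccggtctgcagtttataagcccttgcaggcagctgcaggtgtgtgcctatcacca
Oas1a, with overlapping matches, was at 1.61, 1.68 and 1.57 FPKM in Sham and 20.5, 18.7 and 21.8 in C_Spinal (3.53, SE 0.087), and Rsad2 at 3.05, 2.67 and 3.01 FPKM in Sham and 27.7, 28.5 and 29.5 in C_Spinal (3.18, SE 0.065). A match describes the letters of the window and does not show that a factor binds there.

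Receptors for microbial and damage signals rose in 19 of 20 cases and fell in none (median 2.40). Tlr2, which senses lipoproteins, was at 2.25, 2.69 and 1.99 FPKM in Sham and 13.9, 13.3 and 13.1 in C_Spinal (2.43, SE 0.11). Nlrp3, the inflammasome sensor, was at 1.19, 0.838 and 1.09 FPKM in Sham and 3.21, 3.11 and 3.95 in C_Spinal (1.61, SE 0.17). Cd14, the lipopolysaccharide coreceptor, rose by 4.12. Il1b, whose protein the Nlrp3 inflammasome helps to mature, was low in both groups, as given above.

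Most, but not all, lysosomal genes rose. Of 43 tested hydrolase and proton pump genes, 30 rose, 9 fell and 4 were not called (median 1.28). Ctsd, cathepsin D, was at 212, 213 and 211 FPKM in Sham and 1789, 1715 and 1760.3 in C_Spinal (2.94, SE 0.025). Lamp1, a protein of the lysosomal membrane, was at 228, 226 and 229 FPKM in Sham and 399, 395 and 402 in C_Spinal (0.70, SE 0.022). Among the genes that fell were pump subunits abundant in neurons, Atp6v1a (-1.15), Atp6v0a1 (-0.94) and Atp6v1b2 (-0.69). Atp6v0d2, the pump subunit of osteoclasts and macrophages, had no count in Sham and 4.24, 3.82 and 5.29 FPKM in C_Spinal. The common subunit Atp6v0d1, at 113, 114 and 112 FPKM in Sham and 121, 121 and 123 in C_Spinal, was not called (-0.0012, 95% confidence interval -0.062 to 0.060). Its call depends on the scaling: higher with total-count scaling (0.11) and lower under scaling by the reference genes (-0.42). The palindrome TCACGTGA, the core of the element shared by many lysosomal genes, was found in 4 of 30 promoters of the list (13.3%) against 0.777% of all promoters. Its holders did not move as a set, with Ctsd and Lamp1 higher, Mcoln1, a lysosomal calcium channel, lower (-0.26) and Atp6v0d1 not called. The promoters of the 2 that rose are shown as above, with the palindrome in capitals.
Ctsd, chr1:206968822-206968971, minus strand: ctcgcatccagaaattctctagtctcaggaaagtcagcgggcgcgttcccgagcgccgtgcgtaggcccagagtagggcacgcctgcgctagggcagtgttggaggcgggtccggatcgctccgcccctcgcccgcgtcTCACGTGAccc
Lamp1, chr16:83075064-83075213, minus strand: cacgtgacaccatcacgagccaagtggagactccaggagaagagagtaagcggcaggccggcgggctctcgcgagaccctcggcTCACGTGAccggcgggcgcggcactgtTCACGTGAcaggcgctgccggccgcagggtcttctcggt
In the cholesterol synthesis list, none of 19 promoters held TCACNCCAC, a form of the sterol response element found in 1.12% of all promoters, which says only that these letters are not in the window.

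Of 21 iron handling genes, 14 rose and 5 fell (median 0.90). Hmox1, the inducible heme oxygenase, was at 7.68, 9.08 and 8.37 FPKM in Sham and 102, 101 and 101 in C_Spinal (3.48, SE 0.060), and Hmox2, the constitutive form, fell from 53.7, 57.8 and 59.4 to 28.9, 31.7 and 30.1 FPKM (-1.03, SE 0.049). The ferritin light chain Ftl1 was at 57.3, 39.0 and 37.8 FPKM in Sham and 528, 370.1 and 485 in C_Spinal (3.25, SE 0.20); ferritin has near-identical gene copies, and how the counting split them is unknown. Slc40a1, ferroportin, the iron exporter, was at 2.08, 1.74 and 1.48 FPKM in Sham and 2.91, 3.03 and 3.07 in C_Spinal (0.65, SE 0.18), or 0.23 and not called under scaling by the reference genes. Tfrc, for uptake, fell (-1.22). Of 29 genes of the phagocyte oxidase and antioxidant defence, 19 rose and 6 fell (median 0.59). Cybb, the catalytic subunit of the oxidase, was at 1.96, 2.01 and 2.46 FPKM in Sham and 33.4, 35.9 and 33.0 in C_Spinal (3.88, SE 0.089). The antioxidant genes Gclm (-0.98), for glutathione synthesis, and Sod2 (-0.92), the mitochondrial superoxide dismutase, fell.

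Genes of the extracellular matrix rose in most cases. Of 32 genes of fibrillar collagens and their processing, 30 rose (median 2.08), of 21 basement membrane genes 20 (median 1.93), and of 33 matricellular and elastic fibre genes 30 (median 2.94). Col1a1, the main collagen of scar, was at 15.7, 15.9 and 16.6 FPKM in Sham and 323, 313 and 319.7 in C_Spinal (4.198, SE 0.031). Col4a1, of basement membranes, was at 11.9, 12.2 and 12.7 FPKM in Sham and 53.3, 51.5 and 54.0 in C_Spinal (1.999, SE 0.036). Fn1, fibronectin, was at 12.8, 13.7 and 13.6 FPKM in Sham and 155, 158 and 157 in C_Spinal (3.44, SE 0.032). The groups were far apart in all 3. Tnc, tenascin C, rose from 1.39, 1.43 and 1.77 to 19.0, 19.2 and 18.5 FPKM (3.52, SE 0.089), and Thbs1, thrombospondin 1, by 4.52. The falls were few: Col11a2 (-1.96) and Col2a1 (-0.66), known from cartilage, Col4a3 (-0.46), and Sparcl1 (-0.40) and Ccn1 (-0.36) among matricellular proteins. Col4a3 was not called without Sham replicate 2 or C_Spinal replicate 3 (adjusted p 0.0502 to 0.0539).

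Proteoglycans moved in both directions. Of 36 tested proteoglycan and hyaluronan genes, 21 rose, 10 fell and 5 were not called (median 0.74). The 3 largest falls were in genes of the perineuronal net, the matrix coat around neurons. Acan, aggrecan, was at 3.13, 3.10 and 2.97 FPKM in Sham and 0.266, 0.177 and 0.163 in C_Spinal (-4.03, SE 0.19). The link proteins Hapln1, at 2.99, 3.17 and 2.88 FPKM in Sham and 0.147, 0.0937 and 0.0941 in C_Spinal (-4.86, SE 0.20), and Hapln4 (-4.72) went with it. Dcn, decorin, a proteoglycan of fibroblasts, rose from 27.5, 29.3 and 28.8 to 265, 282 and 272 FPKM (3.15, SE 0.038), and Sdc1 and Aspn by 3.75 and 3.65. Ncan, neurocan, and Vcan, versican, are known as inhibitors of axon growth in scar: Ncan was at 22.4, 23.9 and 24.8 FPKM in Sham and 29.8, 29.3 and 30.1 in C_Spinal (0.21, adjusted p = 0.00137; lower under scaling by the reference genes), and Vcan at 10.2, 10.4 and 7.74 FPKM in Sham and 10.2, 15.9 and 15.2 in C_Spinal, not called (0.43, adjusted p = 0.0562). Vcan was called higher without C_Spinal replicate 1 (adjusted p = 0.00349), at 0.61, and also with total-count and upper-quartile scaling, both limma fits, a mean FPKM of at least 5 and all 9 libraries in the fit (0.43 to 0.55, adjusted p 0.0228 to 0.0487). Proteases and their inhibitors rose in 20 of 29 cases (median 1.22), with Timp1, an inhibitor, at 10.1, 9.69 and 8.44 FPKM in Sham and 239.8, 250.2 and 250.5 in C_Spinal. The 3 matrix proteases with the largest rises, Mmp7, Mmp8 and Mmp12, lie within a single stretch of chromosome 8, from 5606592 to 5901049 in the coordinates of the table, whose build the sources used here do not give. Adam22 (-3.27) and Adam23 (-2.74), receptors of synaptic ligands, fell.

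Fibroblast and meningeal genes rose in 27 of 29 cases (median 2.92). Slc6a13, a transporter of meningeal cells, was at 3.72, 3.65 and 3.07 FPKM in Sham and 52.9, 53.5 and 56.6 in C_Spinal (3.85, SE 0.082), and Aldh1a2, which makes retinoic acid there, at 4.23, 4.24 and 5.05 FPKM in Sham and 49.8, 48.3 and 46.1 in C_Spinal (3.30, SE 0.078). The summed FPKM of the list was 1615 to 1643 in Sham and 6552 to 6601 in C_Spinal. How much meninges each dissection held was not tested. Schwann cell and peripheral myelin genes rose in 19 of 23 cases (median 1.04). Prx, a protein of peripheral myelin, was at 23.5, 23.4 and 21.9 FPKM in Sham and 51.0, 51.4 and 50.6 in C_Spinal (1.04, SE 0.039). Ngfr, the low-affinity neurotrophin receptor of Schwann cells, rose by 3.26, and Sox10, shared with oligodendrocytes, fell (-0.20). Nerve roots in the dissections and Schwann cells within the cord cannot be told apart here.

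Vessels changed unevenly. Of 30 genes of endothelium and the blood-spinal cord barrier, 20 rose and 8 fell (median 0.52). Icam1, which holds leukocytes to the vessel wall, rose by 2.85, and Esm1, of sprouting vessels, by 3.80. Cldn5, the tight junction protein, is listed with no count in all 6 libraries. Endothelium is known to express it, and whether the annotation accounts for the 0 was not tested. Plvap, of leaky vessels, was at 2.99, 2.84 and 3.05 FPKM in Sham and 2.13, 2.64 and 2.45 in C_Spinal (-0.41, SE 0.14, adjusted p = 0.0260), a call that was lost without Sham replicate 1 or 3 or C_Spinal replicate 1 or 3 (adjusted p 0.0561 to 0.0794). Mfsd2a (-1.55), a lipid transporter of the barrier, and Apln (-2.29) fell. Pericyte and smooth muscle genes rose in 14 of 20 cases and fell in none (median 0.97); Pdgfrb was at 3.96, 4.02 and 4.03 FPKM in Sham and 12.6, 13.7 and 13.04 in C_Spinal (1.597, SE 0.047) and Acta2, smooth muscle actin, at 11.3, 11.3 and 12.3 FPKM in Sham and 33.6, 34.7 and 34.5 in C_Spinal (1.45, adjusted p = 1.27e-07). Genes of ependymal cells and motile cilia were not called in 7 of 15 cases and rose in 7, with a median of 0.15 that turned to -0.27 under scaling by the reference genes.

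**Figure D4:**
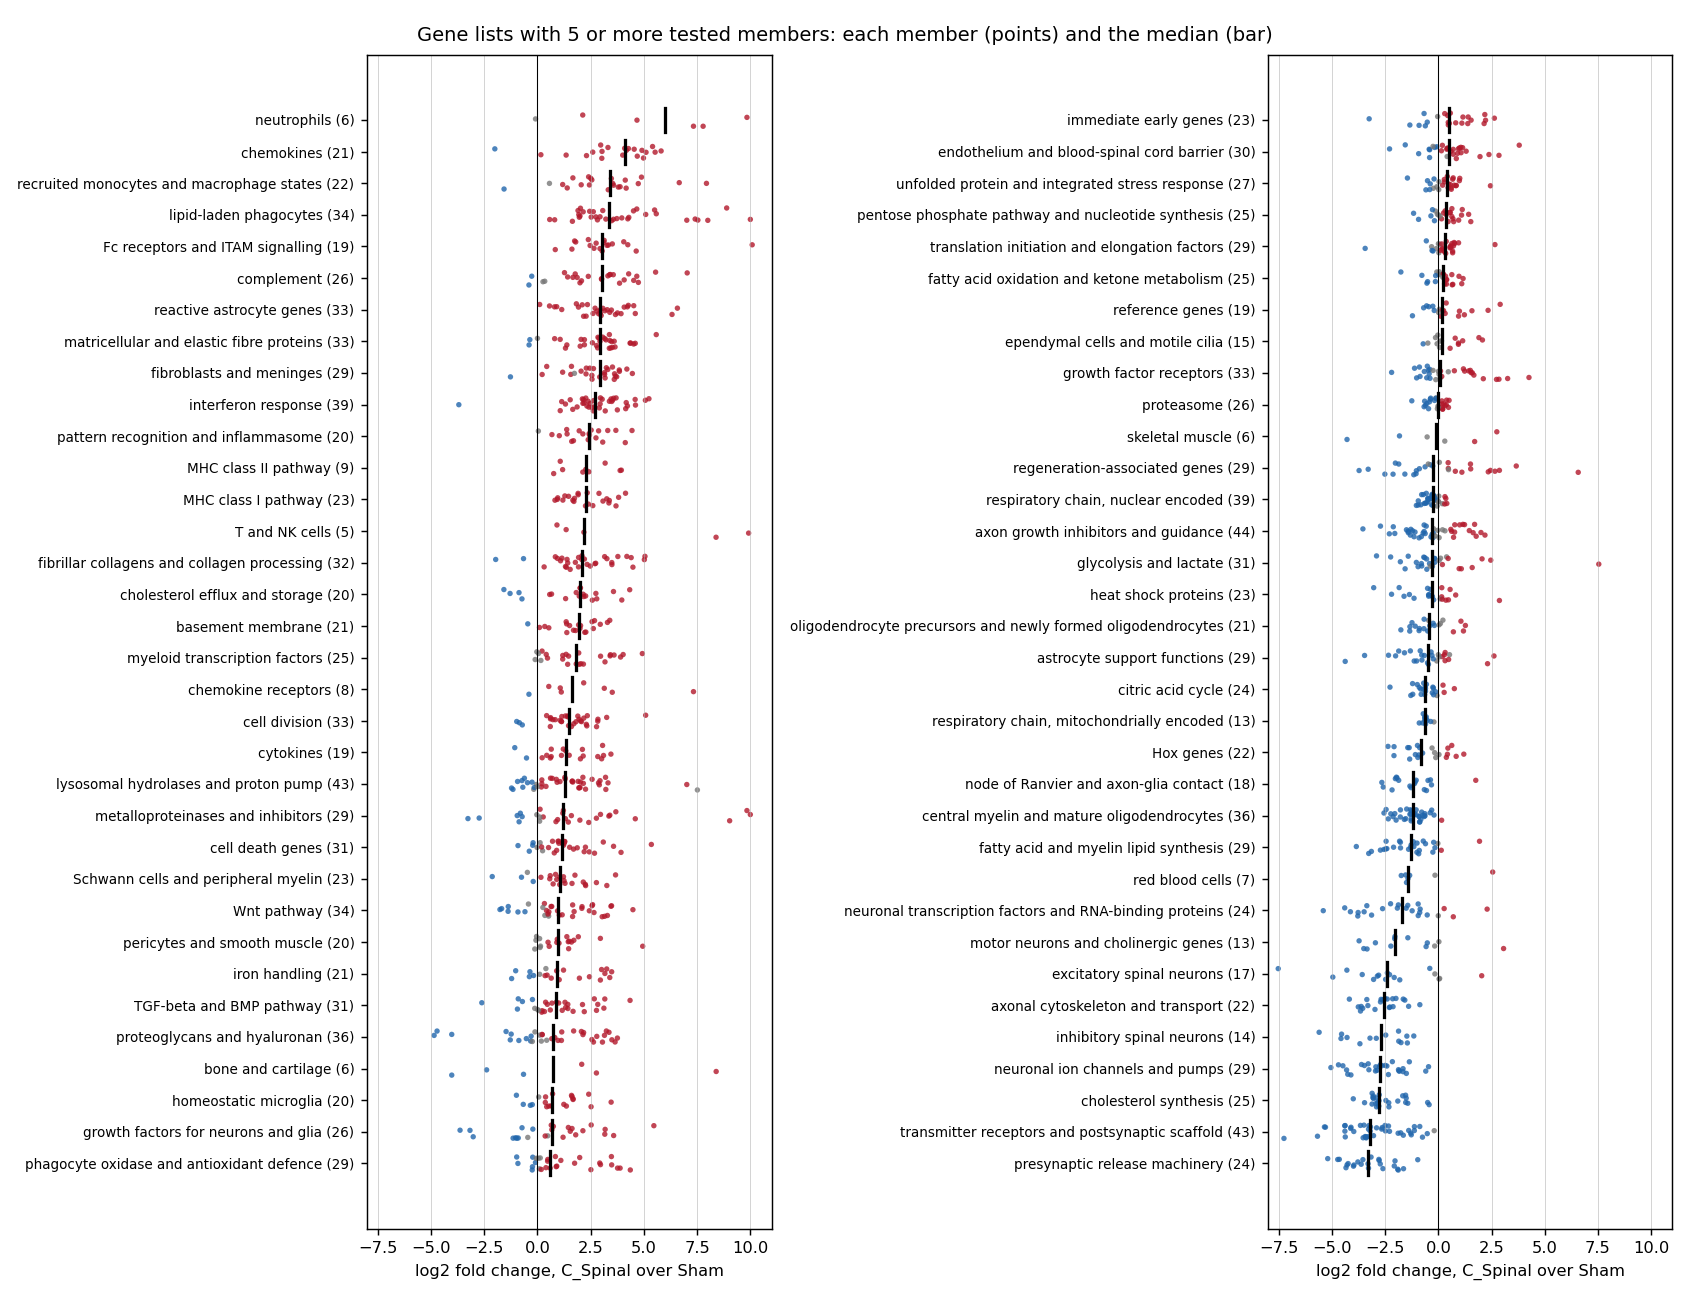
Log2 fold change of C_Spinal over Sham for the tested members of each list with at least 5, sorted by median. Red points were called higher, blue lower and grey not called, black bars are medians, and numbers in brackets count the tested members. Lists run from neutrophils and chemokines at the top left to presynaptic release machinery at the bottom right; under scaling by the reference genes the medians of reference genes, ependymal cells, fatty acid oxidation, pentose phosphate pathway, translation factors and growth factor receptors turn below 0, those of proteasome and skeletal muscle reach 0 or above with total-count scaling, and that of regeneration-associated genes is above 0 among genes of at least 5 FPKM.

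Energy metabolism leaned lower. Citric acid cycle genes fell in 20 of 24 cases (median -0.61), nuclear genes of the respiratory chain in 28 of 39 (median -0.27), and mitochondrially encoded ones in 12 of 13 (median -0.62). Of 31 genes of glycolysis and lactate handling, 18 fell and 8 rose (median -0.28). Hk2, the inducible hexokinase, was at 4.92, 5.22 and 4.64 FPKM in Sham and 15.7, 16.2 and 16.3 in C_Spinal (1.59, SE 0.054). Ldha, the lactate dehydrogenase subunit of glycolytic cells, was at 48.6, 47.5 and 50.2 FPKM in Sham and 105, 104 and 103 in C_Spinal (0.98, SE 0.033). Hk3, the hexokinase of myeloid cells, rose by 7.54, and Eno2, the enolase of neurons, fell (-2.24). Fatty acid oxidation genes rose in 14 of 25 cases (median 0.23, or -0.18 under scaling by the reference genes); Cpt1a, the carnitine transferase that admits fatty acids to mitochondria, was at 17.8, 18.0 and 17.04 FPKM in Sham and 16.8, 18.0 and 17.2 in C_Spinal (-0.14, SE 0.042), a small fall not called without Sham replicate 2 or C_Spinal replicate 1 or 3 (adjusted p 0.0579 to 0.0625).

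In the proteasome 11 of 26 genes rose and 11 fell (median -0.030, or 0.08 with total-count scaling). Translation factors rose in 20 of 29 cases (median 0.30, or -0.12 under scaling by the reference genes), led by Eif4ebp1, a brake on cap-dependent translation (2.66). Genes of the unfolded protein and integrated stress response rose in 17 of 27 cases (median 0.42). Heat shock genes fell in 14 of 23 (median -0.32), with the small chaperone Hspb1 rising by 2.87 and Dnajc6, which uncoats synaptic vesicles, falling (-3.04).

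Genes of cell division rose in 30 of 33 cases (median 1.46). Members such as Top2a and Mki67 passed the expression minimum only through their level after injury, so the count is a description only. Top2a, a topoisomerase of dividing cells, was at 0.479, 0.600 and 0.593 FPKM in Sham and 5.94, 5.84 and 5.43 in C_Spinal (3.25, SE 0.11). Mki67, the proliferation marker, was at 0.824, 0.721 and 0.903 FPKM in Sham and 3.74, 3.62 and 3.42 in C_Spinal (2.03, SE 0.10). Cdkn1a, which halts the cycle, was at 5.80, 6.88 and 6.09 FPKM in Sham and 30.1, 28.4 and 33.3 in C_Spinal (2.17, SE 0.088). Genes of division and the inhibitor Cdkn1a were therefore both above Sham. The exceptions were Cdkn1c (-0.98) and the cyclins Ccne1 (-0.71) and Ccne2 (-0.85), which fell, Ccne1 not without Sham replicate 2 (adjusted p = 0.0521). Cell death genes rose in 24 of 31 cases (median 1.17). Bcl2, which protects cells, was at 0.648, 0.852 and 1.21 FPKM in Sham and 1.44, 0.999 and 1.02 in C_Spinal and was not called (0.24, SE 0.29), while Mlkl and Ripk3, of necroptosis, rose by 3.92 and 3.57.

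Growth factors also moved both ways. Of 26 growth factors for neurons and glia, 15 rose and 9 fell (median 0.66). Gdf15, a stress-induced factor, was at 0.666, 0.337 and 0.748 FPKM in Sham and 28.7, 25.5 and 30.9 in C_Spinal (5.47, SE 0.26). Igf1, made by macrophages and neurons, was at 6.06, 5.44 and 5.63 FPKM in Sham and 43.7, 30.9 and 31.8 in C_Spinal (2.52, SE 0.14). Nrg1 (-3.17) and Fgf9 (-3.64), which neurons supply to glia, fell. Bdnf was below the minimum, at 0.346, 0.387 and 0.310 FPKM in Sham and 0.271, 0.201 and 0.252 in C_Spinal. Growth factor receptors rose in 15 of 33 cases and fell in 12 (median 0.080, or -0.34 under scaling by the reference genes).

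Regeneration-associated genes, known from neurons that regrow axons, rose in 12 of 29 cases and fell in 14 (median -0.26, or 0.26 among genes of at least 5 FPKM). Atf3, a stress-induced transcription factor, was at 3.61, 3.54 and 4.06 FPKM in Sham and 22.5, 21.7 and 22.0 in C_Spinal (2.45, SE 0.066). Gap43, of growth cones, was at 62.9, 61.5 and 61.4 FPKM in Sham and 52.8, 51.8 and 49.9 in C_Spinal (-0.38, SE 0.037, adjusted p = 2.79e-05). Stmn2, of growing axons, fell (-2.51), and Sox11 was below the minimum at 0.177, 0.309 and 0.483 FPKM in Sham and 0.261, 0.195 and 0.369 in C_Spinal. Of 44 genes of axon growth inhibition and guidance, 24 fell and 14 rose (median -0.27). The 3 inhibitors carried by myelin all fell, Omg (-2.04, SE 0.054), Rtn4, known as Nogo (-1.50, SE 0.076), and Mag (-1.31, SE 0.025), whereas Nrp1, the semaphorin receptor, rose by 2.19.

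TGF-beta and BMP genes rose in 23 of 31 cases (median 0.89), and Bmp4 was lower (-0.90). Wnt pathway genes rose in 24 of 34 (median 0.98). Wnt5a was at 1.46, 1.52 and 1.49 FPKM in Sham and 6.76, 7.17 and 6.59 in C_Spinal (2.08, SE 0.068), while Wnt7a (-1.68) and Wnt7b (-1.38), known for their part in the vessel barrier, fell. Immediate early genes rose in 16 of 23 cases (median 0.52), Fos by 0.47 (SE 0.083; 0.050 and not called under scaling by the reference genes) and Myc by 2.63, and Arc, of active synapses, fell (-3.25).

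Hox genes keep a code of position along the cord, so they bear on which level was taken. Of 22 tested, 6 rose, 12 fell and 4 were not called (median -0.81). Hoxc6 was at 8.73, 9.54 and 8.50 FPKM in Sham and 15.9, 17.4 and 18.6 in C_Spinal (0.84, SE 0.089). Hoxa7 was at 7.52, 7.76 and 7.10 FPKM in Sham and 3.89, 4.19 and 4.32 in C_Spinal (-0.96, SE 0.14). Hoxc8, at 18.3, 16.9 and 15.2 FPKM in Sham and 19.3, 19.1 and 17.5 in C_Spinal, was not called (0.032). Hoxb9, of a more caudal position, fell (-2.36), and Hoxc5 rose (1.20). Whether the dissected level differed between groups was not tested, and the cells that carry these genes also differ between the groups.

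Markers of other tissues were followed as a check of the dissection. Hbb, beta-globin, was at 294, 285 and 252 FPKM in Sham and 105, 106 and 108 in C_Spinal, and 5 of 7 tested red blood cell genes fell. Summed FPKM of the red blood cell list was 1411 to 1489 in Sham and 547 to 579 in C_Spinal. Skeletal muscle genes summed to 75.4 to 81.6 FPKM in Sham and 20.7 to 21.4 in C_Spinal, most of it in Sham from Pvalb, which neurons also express, at 69.8, 65.2 and 71.1 FPKM in Sham and 4.03, 3.42 and 3.91 in C_Spinal. Of 6 tested muscle genes 2 rose, 2 fell and 2 were not called: Tnnt3, a troponin of fast muscle, rose by 2.75, and Des, desmin, which smooth muscle also holds, by 1.71. Acta1, skeletal actin, was at 2.03, 2.01 and 1.79 FPKM in Sham and 0.684, 0.377 and 0.698 in C_Spinal. The fat list summed to 4.99 to 5.85 FPKM in Sham and 172 to 189 in C_Spinal, and all 4 tested members rose (median 4.47): Fabp4 (8.89), Cfd (7.03) and Lpl (1.90), of which Fabp4 and Lpl are also known from macrophages, and Plin4 (0.38, or -0.036 and not called under scaling by the reference genes). The defining fat marker Adipoq was at 0, 0.119 and 0.0428 FPKM in Sham and 0.0300, 0 and 0 in C_Spinal, and Lep had no count in any library. The sensory ganglion list summed to 8.73 to 10.1 FPKM in Sham and 8.18 to 9.58 in C_Spinal; of 3 tested members Mrgprx3 (2.47) and Avil (0.99) rose and Drgx, which dorsal horn neurons also express, fell (-3.25). Of its defining markers Scn10a was at 0.0779, 0.0825 and 0.0719 FPKM in Sham and 0, 0.0158 and 0.0248 in C_Spinal, and Prdm12 had no count. Of 6 tested bone and cartilage genes 3 rose, among them Sost (8.39), and 3 fell. Ibsp was at 0.107, 0.188 and 0.342 FPKM in Sham and 1.00, 0.867 and 0.759 in C_Spinal, and Sp7 fell from 5.76, 6.54 and 6.05 to 0.977, 1.34 and 1.43 FPKM (-2.39).

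Relatives that do the same job in different cells were compared in pairs. The pairs were chosen with earlier results of these data known, so the counts are a description only. In 36 pairs with both genes in the table, 34 had both tested: in 11 the first gene, the form of neurons or the constitutive form, fell and the second rose, in 1, Lcp1 of leukocytes with Pls3 of other cells, the first rose and the second fell, in 9 both fell, in 6 both rose and in 7 at least 1 gene was not called. The tubulins Tubb3 of neurons and Tubb6 of other cells were at -2.13 (SE 0.042) and 3.29 (SE 0.079). Tubb6 was at 7.61, 8.61 and 6.91 FPKM in Sham and 80.2, 82.9 and 82.5 in C_Spinal. The elongation factors Eef1a2 of neurons and Eef1a1 of most cells were at -3.44 and 0.95. The small GTPases Rac1, found in most cells, and Rac2, of blood cells, were at -0.17 and 2.92; Rac1 was at 149, 149.8 and 143 FPKM in Sham and 142, 140.1 and 143 in C_Spinal and Rac2 at 5.61, 4.68 and 5.93 FPKM in Sham and 45.6, 43.4 and 44.3 in C_Spinal. In 12 pairs the order of the levels in FPKM turned between the groups.

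**Figure D5:**
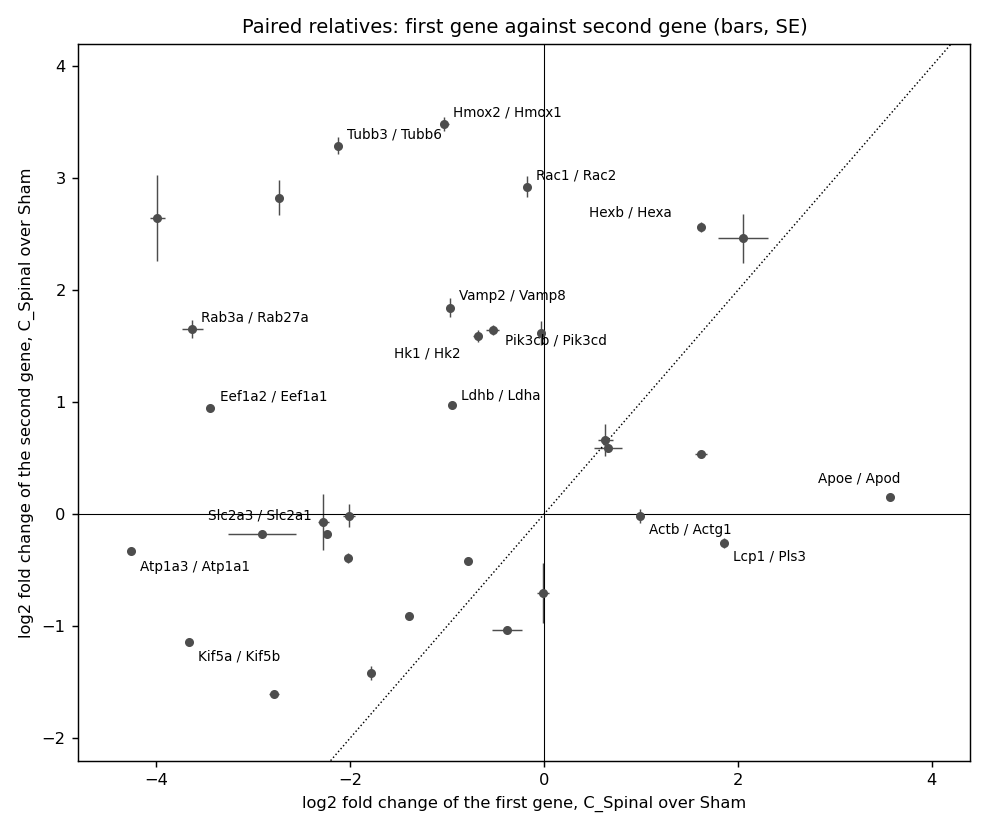
Log2 fold change of C_Spinal over Sham of the first gene (horizontal axis) and the second gene (vertical axis) of 33 pairs of relatives, with standard errors. The dotted line marks equal change; the pair Atp6v0d1 and Atp6v0d2 is not drawn because Atp6v0d2 had no count in Sham. Points at the upper left, such as Tubb3 with Tubb6, have a first gene that fell and a second that rose.

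By place in the genome, 32 of 37 genes of the mitochondrial chromosome were lower (median -0.82), among them 19 of 22 transfer RNAs (median -1.19). The share of all counts from mitochondrial genes was 8.27% to 9.57% in Sham and 6.06% to 6.47% in C_Spinal. On the X chromosome 28.8% of 497 genes rose and 46.7% fell, against 37.7% and 37.3% of all genes. Small nucleolar RNAs rose in 33 and fell in 9 of 157 cases (median 0.63). These shares, 21.0% and 5.73%, both lay below those of all genes. Poly(A) selection is not designed to capture short RNAs such as these and the mitochondrial transfer RNAs. A few genes were uneven between libraries of a group. Tagln3, of neurons, was at 0, 56.0 and 0 FPKM in Sham and 0, 30.8 and 30.5 in C_Spinal and was called higher without Sham replicate 2 (adjusted p = 0.0304). Clip3 was at 74.2, 72.5 and 75.6 FPKM in Sham and 0, 26.1 and 29.1 in C_Spinal, not called with all libraries (adjusted p = 0.130) and lower without C_Spinal replicate 1 (adjusted p = 5.04e-07), at -1.54. In all, 18 genes in Sham and 22 in C_Spinal had no count in 1 or 2 libraries and at least 10 FPKM in another, and 0 and 2 of them were called. Why they were listed without counts was not tested.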

How the data were processed

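The deposited table holds raw counts per gene and FPKM (fragments per kilobase of transcript, scaled to library size) for each library, both made by the authors. HISAT and StringTie are named, without versions, in the submitters' processing notes; for the genome build, the gene annotation and the use of strand, the answer is not given in the sources used here. Libraries were TruSeq Stranded mRNA libraries from 1 µg of RNA with inserts of 300 ± 50 bp, per the labels' protocols. Count totals were 56995589 to 69751015 per library, and tested genes held at least 99.7% of them. Whether the counting used strand is unknown, so overlapping and antisense genes may not be separated, and reads of near-identical copies may be split between them.

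Counts of Sham and C_Spinal were fitted in R 4.3.3 with edgeR 4.0.16 (TMM scaling, quasi-likelihood test, no covariates) over all 14776 genes with mean FPKM of at least 1, and p-values were adjusted by the Benjamini-Hochberg method over all of them. SE is the absolute log2 fold change divided by the square root of the F statistic. Adjusted p-values in the text come from this fit unless another is named. With 3 libraries against 3, an exact permutation test of a single gene cannot go below p = 0.1. The procedure was tested on simulated data over 14776 genes, of which 100 were changed 1.5-fold, 100 were changed 2-fold and the rest left unchanged. It found 51% of those changed 1.5-fold and 78% of those changed 2-fold, and 3.01% of its calls were false. In the real comparison 75.0% of genes were called, so these shares do not carry over to it, and errors of scaling were not simulated. Where a whole group had no count, the fold is a lower bound against 3 counts per library. Summaries and figures were made in Python 3.11.15.

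Alternatives were other scalings (library totals, DESeq2 size factors, upper quartile, reference genes, no mitochondrial genes), other tests (DESeq2 1.42.0, limma 3.58.1 on log2(FPKM + 1) and log2(FPKM + 0.1), glmTreat), other expression minimums, all 9 libraries in the fit, a replicate block, and leaving out each library. Genes named are fixed marker genes, the 10 largest rises and falls, up to 3 of each in every list, exceptions of 5 or fewer, the 10 of highest level per group, the 5 most variable of at least 10 FPKM per group, reference genes and paralogue pairs. The largest rises and falls were taken from called genes with a symbol whose groups did not overlap. Other genes in the text were picked after their values were seen. All 72 lists, the pairs of relatives and the comparison itself were chosen with earlier results of these data known. Some genes the rule names are not reported here. The lists are hand-made and share members. Promoter sequences are from RefSeq (GRCr8), matched by symbol.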

Additional observations from a re-analysis of the deposited data

How the results depend on the processing

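The counts of called genes, 5566 higher and 5513 lower, stayed within 1.5 times of these values under all alternatives except 2. Scaling by the reference genes gave 3436 higher and 8300 lower (29.3% of calls higher) and moved 451 calls to the opposite direction. Testing against a 1.5-fold change with glmTreat gave 3137 and 3028, which its stricter null fixes. Leaving out a library gave 5317 to 5373 higher and 5227 to 5325 lower, with 94.2% to 94.7% of calls kept, on fewer samples. Total-count scaling gave 6368 and 4811, and 57.0% of calls were higher. DESeq2 kept 98.6% of calls and limma on log2(FPKM + 1) 93.7%.

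Replicate numbers gave no sign of a pairing: deviations of same-numbered libraries from their group means correlated at 0.032, -0.023 and 0.0005 across genes, and not every library correlated best with its own number. With a replicate block, 5384 genes were higher and 5347 lower.

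List medians turned sign in these cases. Under scaling by the reference genes these were reference genes (0.17 to -0.24), ependymal cells (0.15 to -0.27), fatty acid oxidation (0.23 to -0.18), pentose phosphate pathway (0.38 to -0.04), translation factors (0.30 to -0.12) and growth factor receptors (0.08 to -0.34). The proteasome went from -0.03 to 0.08 with total-count scaling and both limma fits, regeneration-associated genes from -0.26 to 0.26 at a mean FPKM of at least 5, and skeletal muscle from -0.11 to 0.00 with total-count scaling and 0.13 without C_Spinal replicate 1.

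Of 253 named genes that were tested, 42 changed their call under at least 1 of 20 alternatives. Some of these, such as C3 and Gap43, lost it only in the glmTreat test against a 1.5-fold change, whose stricter null fixes such losses. Scaling by the reference genes turned the calls of Acacb (-0.28), Apod (-0.26), Gja1 (-0.23), Ncan (-0.20) and Tubb5 (-0.24) from higher to lower. Celf2 (-0.14), Plin4 (-0.036), Polr2a (-0.047), Tbp (-0.095) and Tmem119 (-0.049) turned negative and were not called. Hoxc8 (-0.39), Ntrk2 (-0.38) and Ubb (-0.40), not called in the main fit, were called lower. Atp6v0d1, at -0.0012 and not called in the main fit, was called higher (0.11) with total-count scaling and both limma fits. Under scaling by the reference genes it was called lower (-0.42). Fos and Slc40a1 were not called under reference scaling, nor Rac1, Sox10, Mcoln1, P2ry12, Plvap, Cpt1a and Col4a3 with total-count scaling. The cause was not tested; small changes near 0 move with the scaling by construction. Depth limits chiefly genes near 1 FPKM, and the number of libraries the smallest differences.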

Other observations

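Of 13 tested genes of the core particle, which holds the proteolytic sites, 10 rose, 0 fell and 3 were not called, whereas of 13 genes of the regulatory particle, which unfolds substrates, 1 rose, 11 fell and 1 was not called. Under scaling by the reference genes the core had 0 higher and 8 lower genes (median -0.21) and the regulatory particle 0 and 13 (median -0.83), so the direction of the core depends on the scaling, while its median lay above that of the regulatory particle under each of the 3 scalings compared. The division was drawn after the values were seen. Psmb3, of the core, was at 62.9, 68.1 and 63.9 FPKM in Sham and 96.7, 100.2 and 102 in C_Spinal (0.51, SE 0.044). Psmc5, an ATPase of the regulatory particle, was at 174, 169 and 176 FPKM in Sham and 79.6, 78.7 and 78.4 in C_Spinal (-1.25, SE 0.031). The groups of neither gene overlapped. With total-count scaling the medians were 0.32 and -0.30.

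Growth factor receptors held large changes of both signs behind a median near 0. Csf2ra and Csf2rb, the chains of the receptor for GM-CSF, rose by 4.26 (SE 0.13) and 2.85 (SE 0.10). Ngfr, the p75 neurotrophin receptor, was at 2.61, 2.08 and 2.39 FPKM in Sham and 24.7, 23.1 and 25.5 in C_Spinal (3.26, SE 0.095), with every C_Spinal library above every Sham library. Erbb4, a neuregulin receptor of neurons, was at 3.64, 4.19 and 3.71 FPKM in Sham and 0.821, 0.934 and 0.967 in C_Spinal (-2.19, SE 0.12). Lifr, the receptor for leukaemia inhibitory factor, and Fgfr3 fell (-1.12, SE 0.060, and -1.02, SE 0.034). The neurotrophin receptor Ntrk2, which is abundant in astrocytes, was at 57.8, 59.6 and 59.2 FPKM in Sham and 63.4, 66.4 and 65.9 in C_Spinal and was not called (0.036, 95% confidence interval -0.027 to 0.10).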
